A study of Homo sapiens with 6 samples.

Results

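Clade B serpins are the ovalbumin-like branch of the serpin protease inhibitors. The 10 genes SERPINB1, SERPINB2, SERPINB3, SERPINB4, SERPINB5, SERPINB6, SERPINB7, SERPINB8, SERPINB9 and SERPINB13 were taken by symbol from the deposited table of read counts, where each had 1 row among 26334 genes. The libraries were poly-A RNA-seq of MCF10DCIS.com, a human breast cancer cell line of the MCF10A lineage that forms comedo-type ductal carcinoma in situ in mice. Cells carried a lentiviral hairpin vector with a U6 promoter, TagRFP and a puromycin resistance gene, and were selected in 3 µg/ml puromycin. The control hairpin was directed at luciferase (shLuc, 3 libraries) and the silencing construct at WDR5 (shWDR5, 3 libraries), so both groups shared vector and selection. The study's methods describe pooled WDR5 hairpins for the transplantation of these cells and biological triplicates as its general rule, but the labels name neither for these libraries. If the replicates were not separate cultures, the p-values measure only the spread between these samples, which may be technical.

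A serpin presents a reactive centre loop as bait, and a protease that cleaves it is trapped in a covalent complex and inactivated. Clade B members lack a classical secretion signal and work largely inside the cell, where they guard against misdirected or leaked proteases of lysosomes and granules. The human genes sit in one cluster on chromosome 6 and one on chromosome 18, and several are prominent in squamous and basal epithelia, including the basal layer of the breast duct. WDR5 is a scaffold subunit of the complexes that methylate lysine 4 of histone H3, a mark of active promoters.

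The libraries held 38218108 to 57640167 counted reads. WDR5 itself was at 52.6, 48.5 and 51.3 normalised counts (CPM, reads per 1000000 of the library after TMM scaling) in shLuc and at 23.4, 24.4 and 20.8 CPM in shWDR5. The log2 fold change of WDR5 was -1.15 (SE 0.07, adjusted p = 8.671e-07), which matched the labels. Of 16117 genes with enough reads to be tested, 4291 were called higher in shWDR5 (26.6%) and 4821 lower (29.9%) at an adjusted p under 0.05, with a median log2 fold change of -0.01. The 9 basal epithelial markers were all detected, and 7 rose while 1 fell. Their summed level per length (RPKM, the CPM divided by the kilobases of annotated exon) ranged from 2918 to 3148 in shLuc and from 4869 to 5497 in shWDR5. The largest log2 fold changes among the called markers were those of KRT6A (1.83), KRT14 (1.29), KRT17 (0.94) and KRT5 (0.91). Of 10 luminal markers 8 were tested, and 2 rose and 3 fell, with PGR and KRT20 at or near 0 and sums of 1751 to 1897 against 1699 to 1863 RPKM. Among 6 general epithelial markers 1 rose and 4 fell, from 662 to 671 RPKM down to 515 to 527 RPKM, including CDH1 (log2 fold change -1.03). Blood markers summed to 7.09 to 8.32 against 6.94 to 8.32 RPKM, with 2 of 4 tested higher and 1 lower, and PTPRC and CD3E at or near 0. Stromal markers summed to 5.51 to 5.76 against 3.68 to 4.09 RPKM, with 2 of 5 tested lower and none higher, and COL1A2, COL3A1, DCN and LUM at or near 0. The part of the basal and epithelial marker changes in the serpin results was not tested, and in bulk samples fewer cells of a type and less RNA per cell cannot be told apart.

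All 10 clade B serpins passed the filter on low counts. In shWDR5, 6 of them were called higher (SERPINB2, SERPINB4, SERPINB5, SERPINB7, SERPINB8 and SERPINB9), 3 were called lower (SERPINB1, SERPINB3 and SERPINB6), and SERPINB13 was not called. The median log2 fold change of the 10 was 0.54. The same 6 had no overlap between groups upward, and the same 3 downward, where 29.9% of all genes tested lay wholly higher and 32.4% wholly lower. The median absolute log2 fold change was 0.58 for the serpins and 0.31 for all genes tested. With the additional thresholds of an absolute log2 fold change of at least 0.6 and a mean RPKM over 0.5 in either group, 2 serpins were higher (SERPINB7 and SERPINB8) and 1 lower (SERPINB3), where 7.9% of all genes tested were higher and 10.5% lower.

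**Figure D1:**
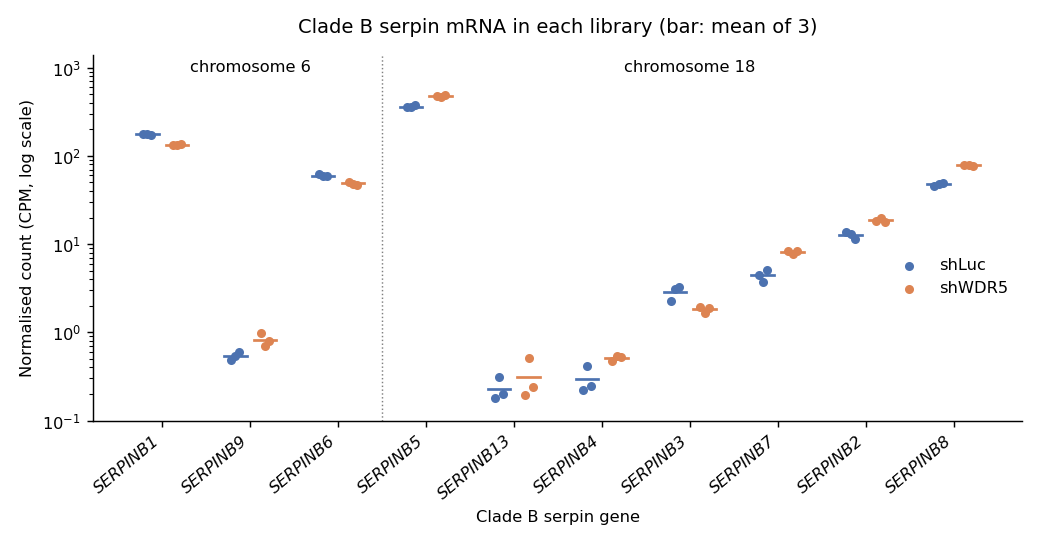
Normalised count (CPM, log axis) of each clade B serpin in every library, with genes in chromosome order within each cluster, dots for libraries and bars for means of 3. The most abundant member, SERPINB5, lay at 354 to 376 CPM in shLuc and 467 to 496 CPM in shWDR5, while SERPINB13 overlapped between groups.

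SERPINB5 encodes maspin, a member that does not inhibit proteases and is known as a product of breast myoepithelial cells and a tumour suppressor. The gene lies at chr18:61144144-61172318 on the plus strand (hg19, as for all gene positions here). It was at 354, 359.8 and 376 CPM in shLuc and at 483, 467 and 496 CPM in shWDR5. All shWDR5 libraries were above all shLuc libraries, and the mean went from 363 ± 11.3 to 482 ± 14.5 CPM (SD, n = 3). The log2 fold change was 0.41 (SE 0.05, 95% interval 0.29 to 0.52, adjusted p = 7.152e-05), a 1.33-fold rise. Per length it was the most abundant clade B serpin in both groups, at a mean of 138 RPKM in shLuc and 183 RPKM in shWDR5.

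SERPINB8, at chr18:61637263-61656608 on the plus strand, closes the chromosome 18 cluster and encodes an inhibitor of the proprotein convertase furin. Its level was 45.4, 48.3 and 49.2 CPM in shLuc and 79.4, 79.2 and 77.6 CPM in shWDR5. The groups were far apart relative to their spread, with SDs of 1.99 and 0.99 CPM. SERPINB8 rose 1.65-fold (log2 fold change 0.73, SE 0.06, 95% interval 0.60 to 0.85, adjusted p = 2.783e-06), which was the smallest adjusted p of the 10 serpins. FURIN itself was not called.

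SERPINB2 encodes plasminogen activator inhibitor type 2, which blocks urokinase, and lies at chr18:61554939-61571124 on the plus strand. It was at 13.6, 13.1 and 11.4 CPM in shLuc and at 18.2, 19.7 and 17.8 CPM in shWDR5. No libraries of the groups overlapped, and the gene rose 1.47-fold (log2 fold change 0.55, SE 0.08, 95% interval 0.37 to 0.74, adjusted p = 0.0002641). The urokinase gene PLAU, named here because it is the target of this serpin, also rose (log2 fold change 0.30, adjusted p = 0.00343).

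SERPINB7 encodes megsin, a member expressed in the upper epidermis and lost in an inherited palmoplantar keratoderma. The gene is at chr18:61420281-61472610 on the plus strand. Its libraries held 4.47, 3.74 and 5.08 CPM in shLuc and 8.29, 7.64 and 8.38 CPM in shWDR5. Every shWDR5 library exceeded every shLuc library. The log2 fold change of SERPINB7 was 0.87 (SE 0.11, 95% interval 0.62 to 1.11, adjusted p = 7.951e-05), or 1.82-fold, and stood at percentile 93.3 of all genes tested.

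SERPINB3 and SERPINB4 encode the squamous cell carcinoma antigens, neighbouring duplicates with different targets. SERPINB3 inhibits lysosomal cysteine proteases such as cathepsins L, K and S, whereas SERPINB4 inhibits the serine proteases cathepsin G and chymase. They lie next to each other on the minus strand, SERPINB4 at chr18:61304493-61311553 and SERPINB3 at chr18:61322431-61329197. SERPINB3 was at 2.29, 3.12 and 3.25 CPM in shLuc and at 1.92, 1.67 and 1.90 CPM in shWDR5. It was lower in every shWDR5 library and was the only called decrease on chromosome 18 among the listed serpins (log2 fold change -0.65, SE 0.15, 95% interval -0.99 to -0.31, adjusted p = 0.00431), 1.57-fold lower. SERPINB4 was scarce, with 11, 16 and 10 reads in shLuc and 22, 31 and 24 reads in shWDR5, or 0.223, 0.413 and 0.248 against 0.475, 0.545 and 0.529 CPM. The groups did not overlap, though the nearest libraries were at 0.413 and 0.475 CPM, and the log2 fold change was 0.84 (SE 0.28, 95% interval 0.22 to 1.45, adjusted p = 0.02401). This call was lost with DESeq2 (adjusted p = 0.0891), without shLuc replicate 1 (0.0941) or 3 (0.0783), and without shWDR5 replicate 2 (0.0731) or 3 (0.0555).

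The pair also shares sequence, which bears on how reads were assigned between them. Their longest reading frames in GENCODE 29 were 95.2% identical in bases, while the next closest pair of the family, SERPINB8 and SERPINB9, reached 73.3%. Of all 50-base windows, 23.9% of those in SERPINB3 and 24.3% of those in SERPINB4 occurred in the other gene, and no other pair shared any. Reads that fall in such shared stretches are uncertain as to gene, and how the counting treated them was not given in the sources used here. SERPINB4 took 8.87%, 11.7% and 7.09% of their joint reads in shLuc and 19.8%, 24.6% and 21.8% in shWDR5, a comparison chosen after its values were seen. With the reads of both genes summed, the log2 fold change was -0.43 (SE 0.15, 95% interval -0.75 to -0.11, adjusted p = 0.0275). The windows around the RefSeq starts of the pair (GRCh38.p14, chr18:63661844-63662143 for SERPINB3 and chr18:63644207-63644506 for SERPINB4, both minus strand) are printed to show how alike the duplicates are. They run from 250 bases before the start to 50 bases after it, 5′ to 3′, and capitals mark the 4 of 300 bases that differ.
SERPINB3: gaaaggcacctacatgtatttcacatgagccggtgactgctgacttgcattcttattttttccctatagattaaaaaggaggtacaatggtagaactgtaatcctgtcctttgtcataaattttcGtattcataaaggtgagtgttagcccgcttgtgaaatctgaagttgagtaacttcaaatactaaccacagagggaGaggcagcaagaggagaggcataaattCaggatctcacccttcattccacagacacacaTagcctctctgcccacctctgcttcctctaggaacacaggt
SERPINB4: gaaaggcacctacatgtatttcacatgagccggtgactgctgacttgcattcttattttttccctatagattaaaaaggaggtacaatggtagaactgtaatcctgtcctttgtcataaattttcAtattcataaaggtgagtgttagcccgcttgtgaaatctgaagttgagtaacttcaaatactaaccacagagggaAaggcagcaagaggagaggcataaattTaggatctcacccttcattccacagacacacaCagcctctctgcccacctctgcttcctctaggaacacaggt

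SERPINB13, at chr18:61254534-61266433 on the plus strand, encodes hurpin, an inhibitor of cathepsins L and K in stratified epithelium. It had 9, 12 and 8 reads in shLuc and 9, 29 and 11 reads in shWDR5. These were 0.182, 0.309 and 0.198 CPM against 0.194, 0.510 and 0.243 CPM, with 1 shWDR5 library well above the rest and the others within the range of shLuc. The log2 fold change of 0.53 (SE 0.43) had a 95% interval from -0.42 to 1.48 (adjusted p = 0.315). Without shWDR5 replicate 2 the value was -0.05 (adjusted p = 0.935), so at this depth neither a rise nor a fall could be seen.

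SERPINB1 was the second most abundant clade B serpin and the first of the chromosome 6 cluster, at chr6:2832566-2842283 on the minus strand. It encodes the leukocyte elastase inhibitor, which also blocks cathepsin G and proteinase 3. Its level was 175, 177 and 173 CPM in shLuc and 133, 134 and 137 CPM in shWDR5. The gap between the groups was far wider than the spread within them (175 ± 1.99 against 135 ± 2.41 CPM, SD, n = 3), a 1.30-fold fall (log2 fold change -0.38, SE 0.05, 95% interval -0.49 to -0.27, adjusted p = 8.298e-05). The genes of its granule targets ELANE, CTSG and PRTN3 held between 0 and 2 reads in every library.

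SERPINB6 inhibits cathepsin G and several trypsin-like proteases, and lies at chr6:2948393-2972399 on the minus strand. It was at 61.7, 58.5 and 59.6 CPM in shLuc and at 50.6, 48.6 and 47.4 CPM in shWDR5. The fall was small but larger than the spread (log2 fold change -0.29, SE 0.06, 95% interval -0.42 to -0.17, adjusted p = 0.00123), 1.23-fold lower, and stood at percentile 27.1 of all genes tested.

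SERPINB9, between these genes at chr6:2887500-2903546 on the minus strand, encodes the granzyme B inhibitor that protects cells from cytotoxic granules. It had 24, 21 and 24 reads in shLuc and 45, 40 and 36 reads in shWDR5. In CPM these were 0.486, 0.542 and 0.595 against 0.971, 0.704 and 0.794, with no overlap. SERPINB9 was the 1 called increase on chromosome 6 among the listed serpins, 1.52-fold (log2 fold change 0.60, SE 0.21, 95% interval 0.14 to 1.07, adjusted p = 0.03003). The call was lost with DESeq2 (adjusted p = 0.104), without shLuc replicate 1 (0.0899) or 2 (0.0645), and without shWDR5 replicate 1 (0.108) or 3 (0.0549). An exon of SERPINB9 overlaps the opposite-strand transcript LOC101927730, which was itself near 0 reads.

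**Figure D2:**
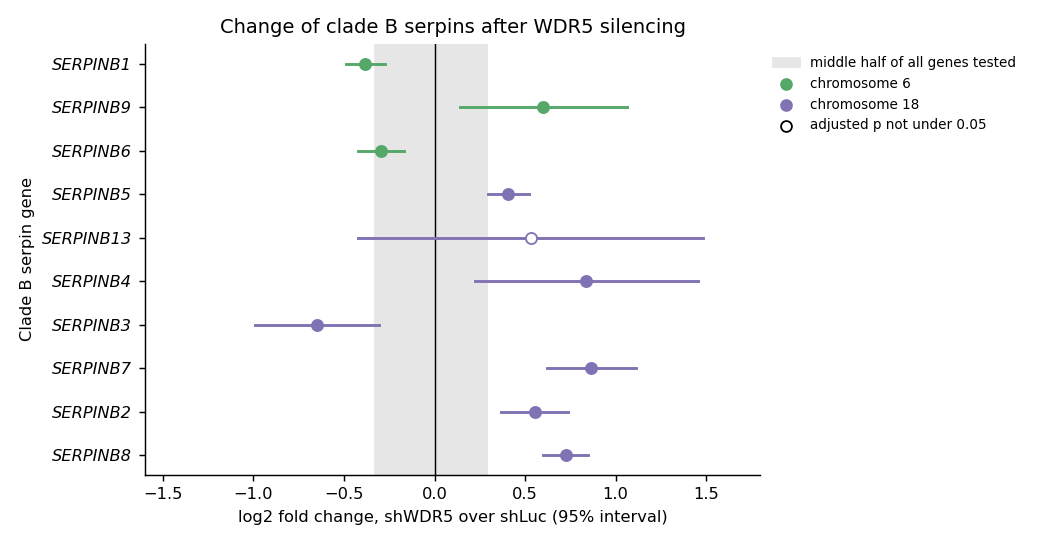
Log2 fold change of each clade B serpin, shWDR5 over shLuc, with its 95% interval, coloured by chromosome, and a grey band from -0.33 to 0.29 that holds the middle of all genes tested (lower to upper quartile). SERPINB1, SERPINB3 and SERPINB6 lie below 0 and the 6 called increases above it, while the interval of SERPINB13 (open circle) spans 0.

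Set side by side, the 3 chromosome 6 genes gave 1 increase and 2 decreases with a median log2 fold change of -0.29, and the 7 chromosome 18 genes gave 5 increases, 1 decrease and 1 gene not called, with a median of 0.55. Of all genes tested, 26.6% were called higher and 29.9% lower. The increases counted include SERPINB9 on chromosome 6 and SERPINB4 on chromosome 18, which each lost their call under 5 alternatives. Among the 7 serpins over 0.5 RPKM in either group, the 2 on chromosome 6 both fell and 4 of the 5 on chromosome 18 rose, SERPINB3 being the exception. These counts describe so few genes that no test over them was made, and each cluster held members that moved in both directions. The summed level of the chromosome 6 genes went from 235.8 ± 2.01 CPM in shLuc to 184.3 ± 1.32 CPM in shWDR5 (SD, n = 3). Most of that sum was SERPINB1 (means of 175.3 and 134.6 CPM), and SERPINB9, which rose, added only 0.54 and 0.82 CPM. For chromosome 18 the sum went from 431.3 ± 12.7 to 589.8 ± 13.2 CPM, mostly SERPINB5, and without that gene from 68.1 ± 1.75 to 108.1 ± 1.42 CPM.

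Per length, the order of the serpins in shLuc was SERPINB5, SERPINB1, SERPINB6, SERPINB8, SERPINB2, SERPINB7, SERPINB3, SERPINB4, SERPINB9 and SERPINB13. SERPINB7 and SERPINB3 overlapped between libraries, at means of 1.87 and 1.62 RPKM, as did SERPINB4 and SERPINB9. In shWDR5 only 1 pair of neighbours in the order changed places, with SERPINB8 (mean 20.8 RPKM) above SERPINB6 (16.1 RPKM). In shLuc these means had been 12.6 RPKM for SERPINB8 and 19.8 RPKM for SERPINB6. SERPINB5 accounted for 56.8% ± 0.851 of the summed RPKM of the 10 genes in shLuc and 65.0% ± 0.682 in shWDR5, and SERPINB1 for 25.9% ± 0.635 and 17.1% ± 0.245. The chromosome 6 genes together went from 34.1% ± 0.836 to 22.9% ± 0.282.

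**Figure D3:**
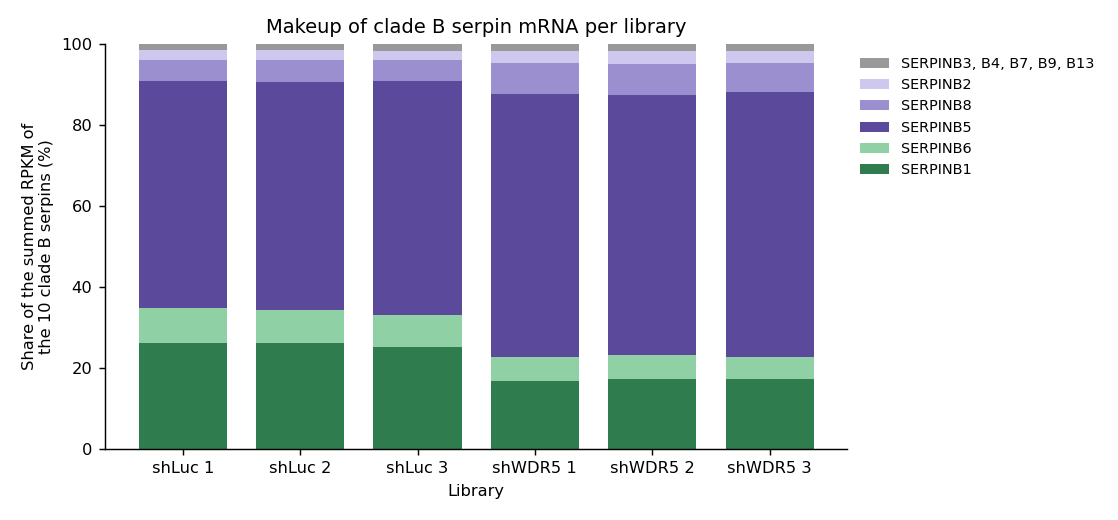
Share of the summed RPKM of the 10 clade B serpins taken by each gene (%), 1 stacked bar per library, green for SERPINB1 and SERPINB6 (chromosome 6), purple for SERPINB5, SERPINB8 and SERPINB2 (chromosome 18) and grey for the 5 scarcest genes of both chromosomes. SERPINB1 averages 25.9% in shLuc and 17.1% in shWDR5, SERPINB6 averages 8.15% and 5.73%, and SERPINB5 is the largest segment of each bar.

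The genes around each cluster are given to show the surroundings of the serpins. Within 500 kb of the chromosome 6 cluster, 12 neighbouring genes were tested, of which 4 rose and none fell, with a median log2 fold change of 0.10. Those called were MYLK4 (log2 fold change 1.46), TUBB2A (0.84), SLC22A23 (0.67) and RIPK1 (0.48). Around and within the chromosome 18 cluster, 6 neighbours were tested, with a median of 0.06. They include SERPINB12, itself a clade B serpin though outside the 10 listed (log2 fold change 0.86, not called). KDSR (0.14), VPS4B (0.17) and PHLPP1 (-0.02) were not called either. None of the 6 was called higher, and 2 were called lower. These were the apoptosis inhibitor BCL2 (log2 fold change -1.29, adjusted p = 0.0003) and HMSD, which lies between SERPINB2 and SERPINB8 (log2 fold change -1.39, adjusted p = 0.0194). HMSD was scarce, with 21, 15 and 10 reads in shLuc and 4, 13 and 3 in shWDR5. Over whole chromosomes, 26.0% of 834 genes tested on chromosome 6 were called higher and 30.9% lower, and on chromosome 18 22.2% of 239 were higher and 30.5% lower. Both chromosomes had medians close to 0 (-0.03 and -0.01).

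The remaining clade B genes were nearly silent. SERPINB10 and SERPINB11 had at most 2 reads in a library and were not tested. SERPINB12, in the chromosome 18 cluster, had 5, 4 and 8 reads in shLuc and 12, 14 and 10 in shWDR5, and its log2 fold change of 0.86 (SE 0.37) did not pass (adjusted p = 0.0694). Of 17 serpins of other clades 12 were tested, and 7 rose, 2 fell and 3 were not called, with a median log2 fold change of 0.51. Over all genes tested, 26.6% were called higher and 29.9% lower. SERPINE2, the protease nexin that inhibits thrombin and urokinase, rose most among the abundant ones (log2 fold change 2.17). SERPINE3 (2.06) and SERPINA4 rose from few reads, SERPINA4 from 1, 1 and 2 to 15, 13 and 15, and SERPINF2, the plasmin inhibitor, fell (-1.06).

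Proteases listed as possible targets of clade B serpins moved in both directions. The list of 16 genes held these proteases and PLAUR, the urokinase receptor, which is not a protease. In it, 11 genes had enough reads to be tested, with a median log2 fold change of -0.13. Of these 4 rose, 5 fell, PLAUR among them (log2 fold change -0.36), and 2 were not called. Calls in both directions were also common over all genes tested, at 26.6% higher and 29.9% lower. The lysosomal cathepsin genes CTSB (log2 fold change 0.62) and CTSK (0.58) rose and CTSH (-0.70) fell. CTSB and CTSH are not among the serpin targets named above. Of the SERPINB3 targets named above, CTSL (log2 fold change -0.41) and CTSS (-0.33) fell, while CTSK rose. GZMB, the granzyme that SERPINB9 inhibits, fell from 64, 60 and 46 reads to 43, 51 and 32 (log2 fold change -0.64).

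RefSeq (GRCh38.p14) gave 15 promoter windows for the 10 genes, all matched by symbol, each of 300 bases from 250 before the start to 50 after it. On chromosome 6, G and C made up 65.7% of the SERPINB1 window, 75.7% of the SERPINB9 window and 47.7% to 76.7% of the 4 SERPINB6 windows, some of which overlap each other. On chromosome 18 they made up 29.7% to 59.7%, the highest being SERPINB5, so the ranges of the clusters overlapped, beside a median of 58.7% over all 35116 windows. Both strands were searched for 4 short motifs. The TATA box was searched as TATAAA. The AP-1 motif was searched as TGANTCA, where N is any base, a pattern wider than TGAGTCA or TGACTCA alone. The GC box was searched as GGGCGG. The E-box was searched as CACGTG. As spelled, none of these motifs can be read inside another.

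The AP-1 letters occurred in 6 of the 15 windows, against 7.71% of all windows. These were windows of SERPINB2, SERPINB5, SERPINB7 (2 windows), SERPINB8 and SERPINB13, all on chromosome 18, and none of the 6 chromosome 6 windows held them. In SERPINB2 and SERPINB5 the only match read TGAATCA, while the windows of SERPINB7, SERPINB8 and SERPINB13 held TGAGTCA or TGACTCA. The windows of SERPINB3 and SERPINB4 and the first of the SERPINB7 windows held none of the 4 motifs. The TATA box letters were in 6 of 15 windows (11.5% of all), those of the GC box in 6 of 15 (45.0% of all) and those of the E-box in none (7.26% of all). The shares over all windows were not matched for G and C content, which was 29.7% to 59.7% in the chromosome 18 windows and 58.7% at the median of all. How far base content alone accounts for the motif counts was not tested. A match is a description of letters and was not tested as a site. The windows of the 4 raised serpins with the smallest adjusted p and of SERPINB1, the most abundant that fell, are printed 5′ to 3′ with motif matches in capitals. They are SERPINB5 at chr18:63476708-63477007 (plus), SERPINB2 at chr18:63887455-63887754 (plus), SERPINB8 at chr18:63969831-63970130 (plus), 1 of the 3 SERPINB7 windows at chr18:63777531-63777830 (plus), chosen for having the most matches, and SERPINB1 at chr6:2841814-2842113 (minus).
SERPINB5: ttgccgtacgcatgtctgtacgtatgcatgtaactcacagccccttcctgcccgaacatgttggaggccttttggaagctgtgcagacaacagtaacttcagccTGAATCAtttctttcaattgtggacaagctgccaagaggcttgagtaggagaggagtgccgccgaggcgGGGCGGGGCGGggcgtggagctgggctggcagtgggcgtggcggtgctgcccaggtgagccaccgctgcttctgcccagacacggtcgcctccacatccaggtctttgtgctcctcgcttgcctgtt
SERPINB2: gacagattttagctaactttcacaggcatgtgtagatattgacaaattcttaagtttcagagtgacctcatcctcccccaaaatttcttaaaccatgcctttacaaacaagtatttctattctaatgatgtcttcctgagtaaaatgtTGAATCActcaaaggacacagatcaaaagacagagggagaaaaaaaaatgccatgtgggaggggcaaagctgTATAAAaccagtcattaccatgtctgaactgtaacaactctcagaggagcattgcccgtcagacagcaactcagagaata
SERPINB8: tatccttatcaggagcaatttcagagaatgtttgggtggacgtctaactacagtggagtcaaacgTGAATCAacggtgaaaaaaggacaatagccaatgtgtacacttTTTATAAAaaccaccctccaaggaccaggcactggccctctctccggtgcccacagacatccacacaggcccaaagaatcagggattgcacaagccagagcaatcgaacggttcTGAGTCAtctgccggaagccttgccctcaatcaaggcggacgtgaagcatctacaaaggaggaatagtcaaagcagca
SERPINB7: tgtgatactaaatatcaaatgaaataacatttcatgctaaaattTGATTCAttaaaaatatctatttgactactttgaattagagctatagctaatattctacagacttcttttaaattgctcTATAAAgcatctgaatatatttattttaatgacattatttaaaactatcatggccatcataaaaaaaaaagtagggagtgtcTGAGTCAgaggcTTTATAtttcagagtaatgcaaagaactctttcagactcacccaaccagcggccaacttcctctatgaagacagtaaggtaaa
SERPINB1: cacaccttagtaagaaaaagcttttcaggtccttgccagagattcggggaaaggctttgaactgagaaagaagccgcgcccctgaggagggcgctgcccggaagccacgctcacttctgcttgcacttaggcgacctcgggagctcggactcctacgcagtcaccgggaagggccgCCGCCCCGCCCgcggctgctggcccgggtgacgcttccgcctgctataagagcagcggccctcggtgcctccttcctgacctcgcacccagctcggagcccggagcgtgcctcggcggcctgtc
Counted from the start, the AP-1 letters began at -146 in SERPINB5, at -102 in SERPINB2, at -185 and -28 in SERPINB8 and at -206 and -45 in this SERPINB7 window. SERPINB2 had the TATA box letters at -30 and SERPINB7 at -127, both on the printed strand, while the SERPINB7 match at -33 was on the opposite strand. In SERPINB8 the matches at -142 and -140 were on opposite strands and overlapped. SERPINB5 and SERPINB1 had GC box letters instead, at -77 and -72 and at -74 and -69, those of SERPINB1 on the strand opposite to the printed one.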

How the data were processed

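Counts per gene were made by the authors and deposited as 1 table of whole reads. The submitters' processing notes name TopHat2 2.1.0, featureCounts, edgeR 3.2.2 and hg19/GRCh37, and the strand setting of the counting was not given in the sources used here. A second deposited table holds the authors' own comparison (fold changes, F, p and FDR) and was not used. The members, gene lists and tests were chosen with earlier results of these data known. Counts were fitted with edgeR 4.0.16 in R 4.3.3 (TMM factors, filterByExpr with a minimum count of 10 and total of 15, quasi-likelihood test, 3 shWDR5 against 3 shLuc, no covariates), with Benjamini-Hochberg adjustment over 16117 genes and calls at an adjusted p under 0.05. CPM and RPKM were computed from the counts with those factors and the gene lengths of the table. Libraries held 38218108 to 57640167 reads, and SERPINB4, SERPINB9 and SERPINB13 rest on under 50 reads a library. No libraries were duplicates. Named genes were the 10 members, WDR5, the other clade B genes, and up to 4 called genes with the largest change per list or cluster neighbourhood. Some serpin targets and marker genes near 0 were named besides. Some genes of the marker lists are not reported here and were left out of the list counts and sums. Alternatives were other scalings, no filter, DESeq2 1.42.0, a likelihood ratio test, a replicate block, the thresholds of the study, SERPINB3 and SERPINB4 summed, and leaving out each library. Promoter windows came from RefSeq (GRCh38.p14) and reading frames from GENCODE 29. Neither is of the hg19 build, so their coordinates were not mixed with those of the counts.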

Additional observations from a re-analysis of the deposited data

How the results depend on the processing

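SERPINB1, SERPINB2, SERPINB3, SERPINB5, SERPINB6, SERPINB7, SERPINB8 and WDR5 kept their direction and call in all 13 alternative fits (12 for SERPINB3). Over the 13 fits that kept the adjusted p threshold alone, 4 to 6 of the serpins were called higher and 3 lower, with 3705 to 4901 of all genes higher and 4271 to 5511 lower. With the thresholds of the study added, 1274 of all genes were higher and 1688 lower, and 2 serpins were higher and 1 lower, since fewer genes can pass. The median log2 fold change of the chromosome 6 serpins was -0.35 with library totals alone, which omit the composition factors. That of the chromosome 18 serpins ranged from 0.48 to 0.73 when 1 library was left out. It was the value of SERPINB2 in the main fit (0.55) and of SERPINB8 without shLuc replicate 2 (0.73). The scarce SERPINB13 stood below SERPINB2 in the main fit, at 0.53, and above it without shLuc replicate 2, at 0.77 against 0.56. The library left out held the highest SERPINB13 level of shLuc, at 0.309 CPM beside 0.182 and 0.198 CPM. SERPINB13 ranged from -0.05031 to 0.7757 when 1 library was left out, the lowest without shWDR5 replicate 2. SERPINB4 and SERPINB9 each lost their call under 5 alternatives, and their low read numbers limit what can be seen.

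With the replicate number as a replicate block, 4901 of all genes were higher and 5511 lower, 6 serpins were higher and 3 lower, and the medians were -0.29 and 0.55. The deviations of same-numbered libraries correlated at 0.372, 0.0358 and 0.116 across genes, and not every library correlated best with its own number, so the numbers were not taken as pairs. The libraries numbered 1 in each group did correlate best with each other (0.372), and what they may share was not tested.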
